A study of Mus musculus with 6 samples.

Results

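The genes described here make and load the peptide ligands of MHC class I molecules. They are 10 genes: the class I heavy chains H2-K1 and H2-D1, their light chain B2m, the peptide transporter subunits Tap1 and Tap2 with the docking protein Tapbp (tapasin), the immunoproteasome subunits Psmb8, Psmb9 and Psmb10, and the proteasome activator subunit Psme1. All probe sets annotated to a single one of these genes were taken, 27 of the 45037 probe sets tested. Another 3 probe sets, annotated to a member together with other genes, were left out. The genes were chosen by measured values of these same arrays, namely the p300+/- against wild-type comparison and the covariation over the 6 arrays. Their own differences and correlations are therefore given as descriptions, with no test.

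RNA came from the hippocampus of 3-month-old female mice on a C57BL/6 background: 3 pools of p300+/- animals, heterozygous for a p300 deficiency, and 3 pools of their wild-type littermates. Each pool combined equal amounts of RNA from 4 animals, for a total of 12 animals per genotype, and was hybridised to an Affymetrix Mouse Genome 430 2.0 array. The sources used here do not describe the mutant allele further, and pooling hides the spread between animals. In whole tissue, fewer cells of a type and less RNA per cell cannot be told apart.

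MHC class I molecules carry short peptides to the cell surface. In cells exposed to interferon gamma, 3 catalytic subunits of the proteasome are replaced by the inducible subunits encoded by Psmb8, Psmb9 and Psmb10, and the activator PA28, of which Psme1 encodes the alpha subunit, opens the proteasome's entry pore. The TAP1-TAP2 transporter moves peptides into the endoplasmic reticulum, tapasin bridges it to the empty heavy chain, and beta 2-microglobulin (B2m) completes the complex. In the brain the pathway is prominent in microglia and endothelial cells, and class I molecules have also been described in neurons, where they take part in the refinement of synapses. The transcription of class I genes rests on an upstream module in which a CRE-like box, bound by CREB and ATF factors, stands near a CCAAT box bound by NF-Y. CREB-bound DNA recruits p300 and its relative CBP, the histone acetyltransferases at issue in these mice.

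Promoter windows from RefSeq (build GRCm38.p6, from 250 bases before to 50 after the start) are shown for 6 genes that carry the patterns below: both heavy chains, the light chain, the start region that Tap1 shares with Psmb9, the immunoproteasome gene with the clearest genotype difference, and tapasin. Capitals mark matches to the motifs named after the sequences.
H2-K1, minus strand, chr17:34000284-34000583: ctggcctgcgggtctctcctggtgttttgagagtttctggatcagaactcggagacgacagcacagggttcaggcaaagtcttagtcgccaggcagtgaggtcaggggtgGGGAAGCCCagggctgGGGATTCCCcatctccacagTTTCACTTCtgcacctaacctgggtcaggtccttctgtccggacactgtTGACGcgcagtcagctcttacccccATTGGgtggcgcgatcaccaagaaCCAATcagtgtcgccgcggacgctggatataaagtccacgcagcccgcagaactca
H2-D1, plus strand, chr17:35262844-35263143: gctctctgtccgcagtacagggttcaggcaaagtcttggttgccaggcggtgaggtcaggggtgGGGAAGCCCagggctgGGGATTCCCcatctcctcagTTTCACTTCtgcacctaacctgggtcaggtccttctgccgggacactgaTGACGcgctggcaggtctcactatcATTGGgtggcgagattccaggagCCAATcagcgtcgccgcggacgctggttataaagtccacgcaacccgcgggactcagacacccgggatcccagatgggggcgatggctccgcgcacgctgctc
B2m, plus strand, chr2:122147437-122147736: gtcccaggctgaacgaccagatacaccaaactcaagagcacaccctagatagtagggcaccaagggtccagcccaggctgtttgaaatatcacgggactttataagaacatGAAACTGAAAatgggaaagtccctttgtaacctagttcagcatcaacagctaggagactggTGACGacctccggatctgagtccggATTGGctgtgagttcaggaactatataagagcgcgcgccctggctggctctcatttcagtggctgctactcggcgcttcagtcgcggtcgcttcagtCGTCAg
Tap1, plus strand, chr17:34187306-34187605: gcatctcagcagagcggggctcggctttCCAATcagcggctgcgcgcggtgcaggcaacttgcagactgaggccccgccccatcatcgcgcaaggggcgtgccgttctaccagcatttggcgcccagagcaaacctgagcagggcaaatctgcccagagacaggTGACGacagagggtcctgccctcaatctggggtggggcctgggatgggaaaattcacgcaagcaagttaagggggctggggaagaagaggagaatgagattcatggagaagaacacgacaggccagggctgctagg
Psmb8, plus strand, chr17:34197945-34198244: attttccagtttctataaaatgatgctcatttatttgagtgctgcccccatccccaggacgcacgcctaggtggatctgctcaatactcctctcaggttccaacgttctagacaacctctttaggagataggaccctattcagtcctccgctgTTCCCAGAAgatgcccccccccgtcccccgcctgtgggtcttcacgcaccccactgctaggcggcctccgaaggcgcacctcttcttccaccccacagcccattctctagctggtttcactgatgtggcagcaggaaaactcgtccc
Tapbp, plus strand, chr17:33919228-33919527: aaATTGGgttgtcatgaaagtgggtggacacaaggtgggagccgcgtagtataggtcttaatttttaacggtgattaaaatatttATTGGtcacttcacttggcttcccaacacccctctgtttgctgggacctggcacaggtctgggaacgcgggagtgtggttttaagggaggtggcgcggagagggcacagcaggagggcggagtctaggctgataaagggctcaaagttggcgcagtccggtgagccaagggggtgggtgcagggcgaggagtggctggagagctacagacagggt

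The motifs were searched on both strands in the windows of 9 of the 10 genes, Tap2 having no entry, and in all 32851 windows of the table. The CRE half-site TGACG was found for H2-K1, H2-D1, B2m, Tap1 and Psmb9, and in 20.8% of all windows. The CCAAT box CCAAT was found for the same 5 genes and Tapbp, and in 37.4% of all windows. In H2-K1, H2-D1 and B2m, TGACG was followed after exactly 20 bases by ATTGG, the CCAAT box on the opposite strand. This spacing occurred in 19 of all windows (0.0578%), and a gap of 15 to 25 bases in 82 (0.25%). The pair, and the form of the IRF element below, were looked for after the sequences had been seen.

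The interferon regulatory factor (IRF) element GAANNGAAA was found for H2-K1, H2-D1 and Psme1, and in 7.52% of all windows. The longer interferon-stimulated response element (ISRE) core, GAAA, any 2 bases and GAAA again, was found for B2m and Psme1, and in 3.44%, and in Psme1 the matches to these motifs overlapped. The gamma-activated site (GAS) TTCNNNGAA was found for Psmb8, and in 8.3%. The NF-kappaB motif GGGANNNCC was found for H2-K1, H2-D1 and Psme1, and in 18.6%. No motif searched was found for Psmb10. The starts of Psmb9 and Tap1 lie 226 bases apart on opposite strands, and their windows share 275 bases. A match to these letters is a description of the sequence and not a mapped binding site.

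The deposited values are log2 intensities relative to each probe set's own median over the 6 arrays. They keep differences between arrays but hold no level, and the base of the logarithm was taken as 2. The numerical grid of the values placed each probe set in a coarse level class, from 2 to 4, from 4 to 8 or from 8 to 16 on the log2 scale, and 11, 12 and 4 of the 27 member probe sets fell in the classes from 8 to 16, 4 to 8 and 2 to 4. Over the whole table no probe set passed an adjusted p of 0.05 (limma, Benjamini-Hochberg adjustment over 45037 probe sets, smallest adjusted p = 0.9999), so the share called was 0% in each direction. At an unadjusted p under 0.05 limma gave 550 probe sets, 0.77% of the table as higher and 0.451% as lower. For a single probe set, limma's standard error (SE) had a median of 0.15. Below, the SE of a gene averaged over several probe sets comes from the 3 pools per genotype, and that of a single probe set comes from limma. The targeted gene Ep300 was read by a single probe set, at -0.26, -0.22 and -0.50 in p300+/- pools and 0.22, 0.38 and 0.40 in wild-type pools. Arrays p300+/- 3 and wild-type 2 had the widest spreads of values (SD 0.29 and 0.33, against 0.18 to 0.21 in the others). Their deviations from their own genotype's mean correlated with each other over all probe sets (r = 0.648), as did those of p300+/- 1 and wild-type 1 (r = 0.609). Deviations within a genotype sum to 0, so these values depend on each other and do not by themselves establish a shift shared by particular pools.

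The heavy chains were read by 13 probe sets, 11 of which carry the suffix that the maker gives to sets with probes shared between similar transcripts. Signal from H2-K1, H2-D1 and other class I genes cannot be told apart on those 11, so the gene names below are those of the annotation, and the genes are not ranked against each other. H2-K1 encodes the K heavy chain that presents peptides to CD8 T cells. Averaged over its 4 probe sets it lay at 0.070, 0.12 and 0.26 in p300+/- pools and at -0.11, -0.14 and -0.13 in wild-type pools. All p300+/- pools lay above all wild-type pools, as in 2.98% of all gene averages, and the wild-type averages were close together. Single probe sets were not: in wild-type pools 1451931_x_at lay at -0.15, -0.24 and 0.18, and 1450534_x_at at -0.12, 0.019 and -0.36. The median correlation between pairs of H2-K1 probe sets was 0.36, so the SE of the average below does not show how far they disagreed. The log2 fold change was 0.28 ± 0.056 (SE, n = 3 per genotype), or 1.21-fold, and it ran from 0.22 to 0.32 with 1 array left out. Without both p300+/- 3 and wild-type 2 it was 0.22.

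All 4 H2-K1 probe sets had higher values in p300+/- pools, but only 2 of them separated the genotypes, a state found in 3.19% of all probe sets with p300+/- higher. Probe set 1427746_x_at lay at 0.12, 0.094 and 0.54 in p300+/- pools and at -0.094, -0.21 and -0.25 in wild-type pools, and its log2 fold change was 0.43 ± 0.15 (SE). Probe set 1425336_x_at, in the brightest class, lay at 0.20, 0.069 and 0.41 in p300+/- pools and at -0.069, -0.14 and -0.083 in wild-type pools, and its log2 fold change was 0.32 ± 0.13 (SE). On both, p300+/- 3 was the highest array. The other probe sets, 1451931_x_at and 1450534_x_at, gave 0.16 ± 0.15 and 0.18 ± 0.13 (SE), and the genotypes overlapped on them.

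H2-D1, the D heavy chain, was read by 9 probe sets that disagreed with each other. Its average lay at -0.013, 0.054 and 0.10 in p300+/- pools and at -0.15, -0.13 and 0.049 in wild-type pools. The genotypes overlapped through wild-type 3, and the log2 fold change was 0.13 ± 0.072 (SE). Probe set 1426324_at had the largest difference of all 27, at 0.12, 0.23 and 0.50 in p300+/- pools and -0.25, -0.19 and -0.12 in wild-type pools. Its log2 fold change was 0.47 ± 0.13 (SE), or 1.38-fold with a 95% interval of 1.11 to 1.72, and the genotypes did not overlap. The interval is not adjusted for the number of probe sets tested or for the choice of the genes on this contrast. Of the other 8, 1451784_x_at, 1425545_x_at and 1451683_x_at gave 0.36, 0.32 and 0.12, and the other 5 lay between -0.039 and 0.0053.

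The probe sets of the heavy chains fell into families that cut across the gene names. The first held 1426324_at of H2-D1 with 1425336_x_at and 1427746_x_at of H2-K1, with correlations over the 6 arrays of 0.92 to 0.97, and its members were highest in p300+/- 3. The second held 1425545_x_at, 1451784_x_at and 1451683_x_at of H2-D1 with 1451931_x_at of H2-K1, with correlations of 0.84 to 0.98. Its members were lowest in wild-type 2, at -0.60, -0.55, -0.37 and -0.24, and above 0 in wild-type 3. The median correlation between pairs of H2-D1 probe sets was -0.0032, so their average mixes unlike profiles. All 4 probe sets named for H2-K1 are among those with shared probes.

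**Figure D1:**
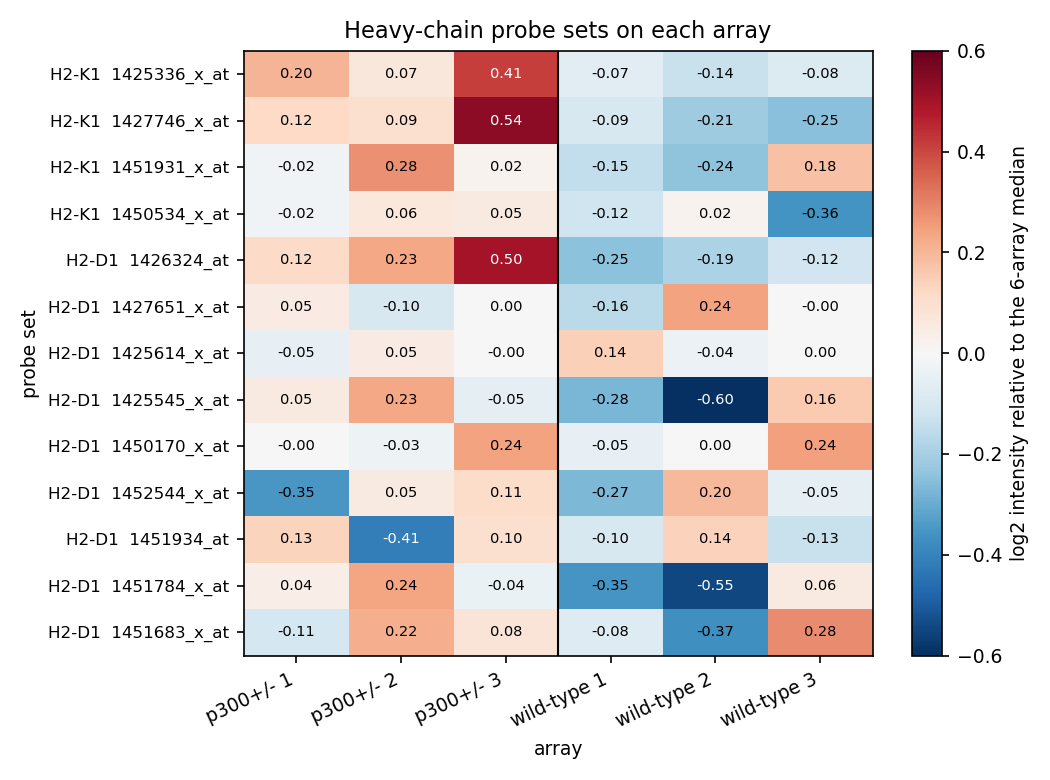
Deposited log2 intensity relative to the 6-array median for the 4 H2-K1 and 9 H2-D1 probe sets (rows) on the 3 p300+/- and 3 wild-type arrays (columns), with red above and blue below the median. Probe sets 1425336_x_at, 1427746_x_at and 1426324_at were highest in p300+/- 3, and 4 others were lowest in wild-type 2.

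B2m, the invariant light chain of every class I molecule, differed between genotypes by less than the p300+/- pools differed among themselves. Its 2 probe sets averaged -0.022, -0.015 and 0.32 in p300+/- pools and -0.18, 0.061 and -0.069 in wild-type pools. Only p300+/- 3 stood above the others. The log2 fold change was 0.16 ± 0.13 (SE) and ranged from 0.043 without p300+/- 3 to 0.22 without wild-type 2. Both probe sets were in the brightest class, and their log2 fold changes were 0.21 and 0.11.

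The transporter genes did not share a profile. Tap1, the first half-transporter, averaged -0.073, 0.036 and 0.22 in p300+/- pools and -0.026, 0.060 and -0.0016 in wild-type pools, and the genotypes overlapped. Its log2 fold change was 0.051 ± 0.089 (SE), and it was -0.029 without p300+/- 3. The brightest Tap1 probe set, 1448177_at, was high in p300+/- 3 (0.45) and wild-type 2 (0.30). Probe set 1416016_at was instead at -0.66 in wild-type 2, and its log2 fold change of 0.21 became -0.20 when both p300+/- 3 and wild-type 2 were left out. The other Tap1 probe sets were in the lowest class and gave -0.097 and -0.017.

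Tap2, the partner half-transporter, had a single probe set, at 0.11, 0.12 and -0.00085 in p300+/- pools and -0.022, -0.24 and 0.00085 in wild-type pools. The genotypes overlapped only by the narrow gap between p300+/- 3 and wild-type 3, and the log2 fold change was 0.16 ± 0.12 (SE), or 0.086 without wild-type 2. Tapbp, read by 2 probe sets with log2 fold changes of 0.11 and 0.30, averaged 0.14, 0.13 and -0.14 in p300+/- pools and 0.051, -0.51 and -0.014 in wild-type pools. It was lowest in wild-type 2, and without that array its log2 fold change of 0.20 ± 0.20 (SE) was 0.027.

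Of the 3 immunoproteasome genes, Psmb8 was the one whose average kept the genotypes apart, as did 2.98% of all gene averages with p300+/- higher, and 1 of its 2 probe sets did so. Psmb8 encodes LMP7, the inducible chymotrypsin-like subunit. Its probe set 1422962_a_at lay at 0.090, 0.19 and 0.18 in p300+/- pools and at -0.090, -0.11 and -0.26 in wild-type pools. All p300+/- pools lay above all wild-type pools. The log2 fold change was 0.31 ± 0.11 (SE), or 1.24-fold, and was 0.25 to 0.34 with 1 array left out. The other Psmb8 probe set, in the lowest class, ran the other way with overlapping genotypes, at -0.075 ± 0.12 (SE), and the average of both was 0.12.

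Psmb9, which encodes the LMP2 subunit, lay at 0.012, -0.012 and 0.17 in p300+/- pools and at -0.034, 0.21 and -0.069 in wild-type pools. Its log2 fold change was 0.021 ± 0.13 (SE), and its highest array was wild-type 2. Psmb10, which encodes MECL-1, lay at 0.052, -0.15 and 0.31 in p300+/- pools and at -0.052, 0.25 and -0.17 in wild-type pools, and its log2 fold change was 0.060 ± 0.17 (SE). For both genes p300+/- 3 and wild-type 2 were the top arrays, so the genotypes overlapped throughout. Without p300+/- 3 the log2 fold change was -0.034 for Psmb9 and -0.061 for Psmb10, and without wild-type 2 it was 0.11 for Psmb9 and 0.18 for Psmb10. The constitutive subunits that the immunoproteasome genes replace, named for this role, had log2 fold changes of 0.030 for Psmb5, -0.024 for Psmb6 and 0.068 for Psmb7.

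Psme1 lay at 0.23, -0.17 and 0.35 in p300+/- pools and at -0.00053, 0.00053 and -0.056 in wild-type pools. The p300+/- pools spread on either side of the wild-type pools, which were nearly equal. The log2 fold change was 0.15 ± 0.15 (SE), and it was 0.31 without p300+/- 2 and 0.049 without p300+/- 3.

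**Figure D2:**
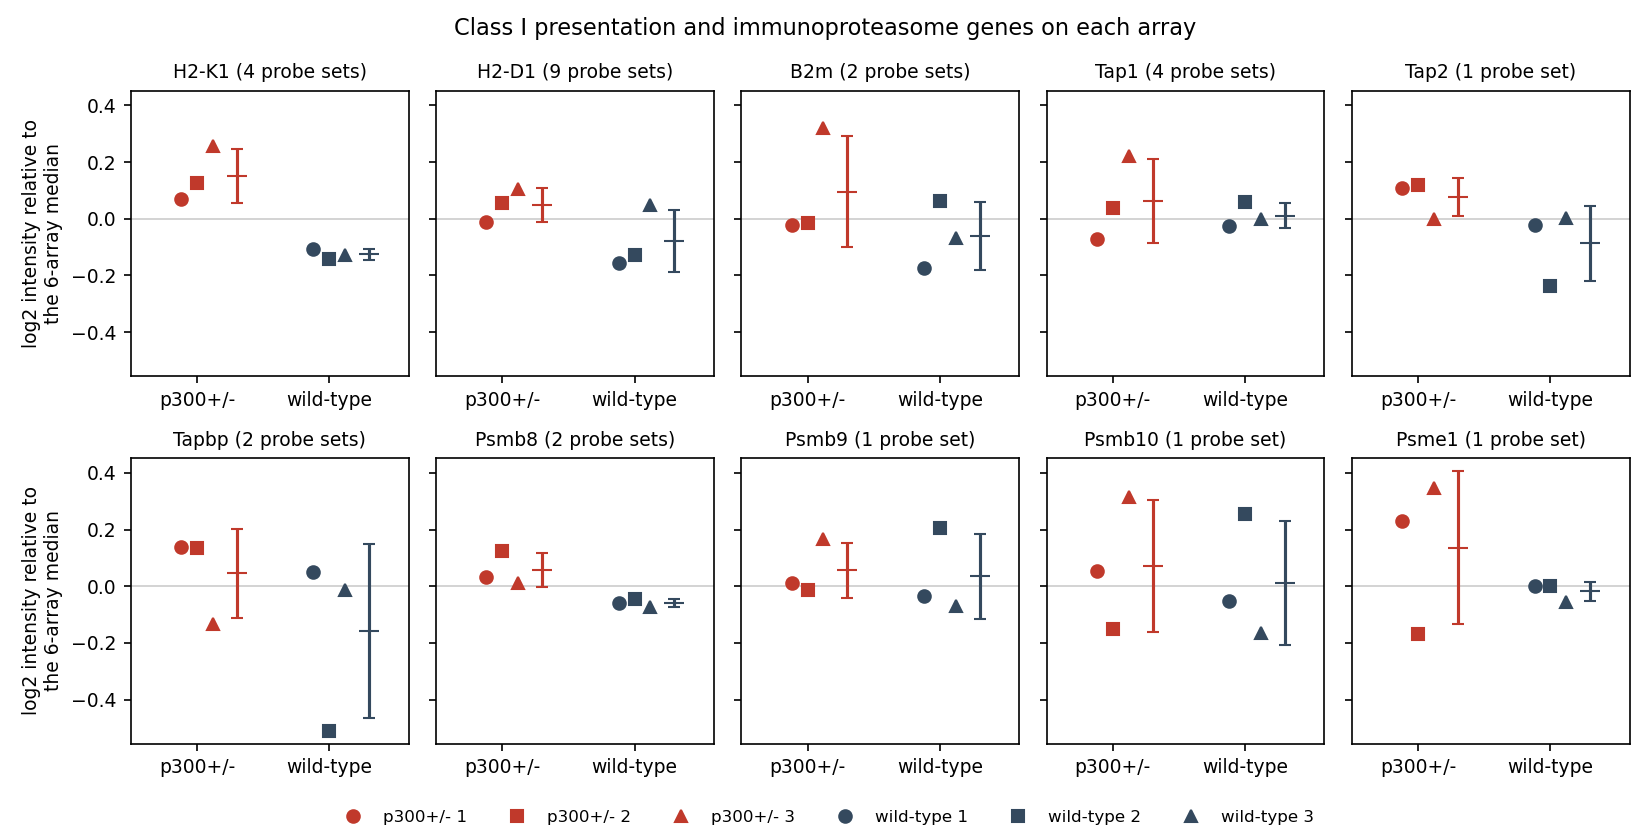
Mean log2 intensity relative to the 6-array median over the probe sets of each gene (vertical axis) by genotype (horizontal axis), 1 symbol per array, with the mean and SD of the 3 arrays beside them. H2-K1 and Psmb8 are the genes whose p300+/- arrays all lie above the wild-type arrays (2 of 10, against 2.98% of all genes). Since the genes were chosen on this contrast, nothing is read from that share. Arrays p300+/- 3 (red triangle) and wild-type 2 (dark square) lie together at the top for Psmb9 and Psmb10 and at the bottom for Tapbp.

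As a group the genes had slightly higher values in p300+/- pools. At the gene level all 10 log2 fold changes were above 0, from 0.021 for Psmb9 to 0.28 for H2-K1, with a median of 0.14. Over all 18193 genes the median was 0.019 and 57.6% were above 0. Of the 27 probe sets 20 were above 0 (74.1%), against 51.7% of all probe sets. The p300+/- arrays lay above all wild-type arrays in 4 of the 27, against 3.19% of the table, and below them in 0 of the 27, against 2.2%. The same 4, on H2-K1 (2), H2-D1 and Psmb8, were those with a limma unadjusted p under 0.05 as higher, against 0.77% of the table, and 0 of the 27 were so as lower, against 0.451%. Since the genes were chosen on this contrast, nothing is read from these shares. By level class, 11 of 11 probe sets were above 0 in the class from 8 to 16, 9 of 12 in that from 4 to 8 and 0 of 4 in that from 2 to 4.

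Much of the group's median difference lay in a single array. The mean over the 10 genes was 0.054, 0.025 and 0.16 in p300+/- pools and -0.058, -0.048 and -0.053 in wild-type pools. The array p300+/- 3 was the highest for 6 genes. Without it the median log2 fold change of the genes was 0.074 in place of 0.14, and 15 in place of 20 probe sets were above 0. The sign held with every single array left out for 13 of the 27 probe sets.

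**Figure D3:**
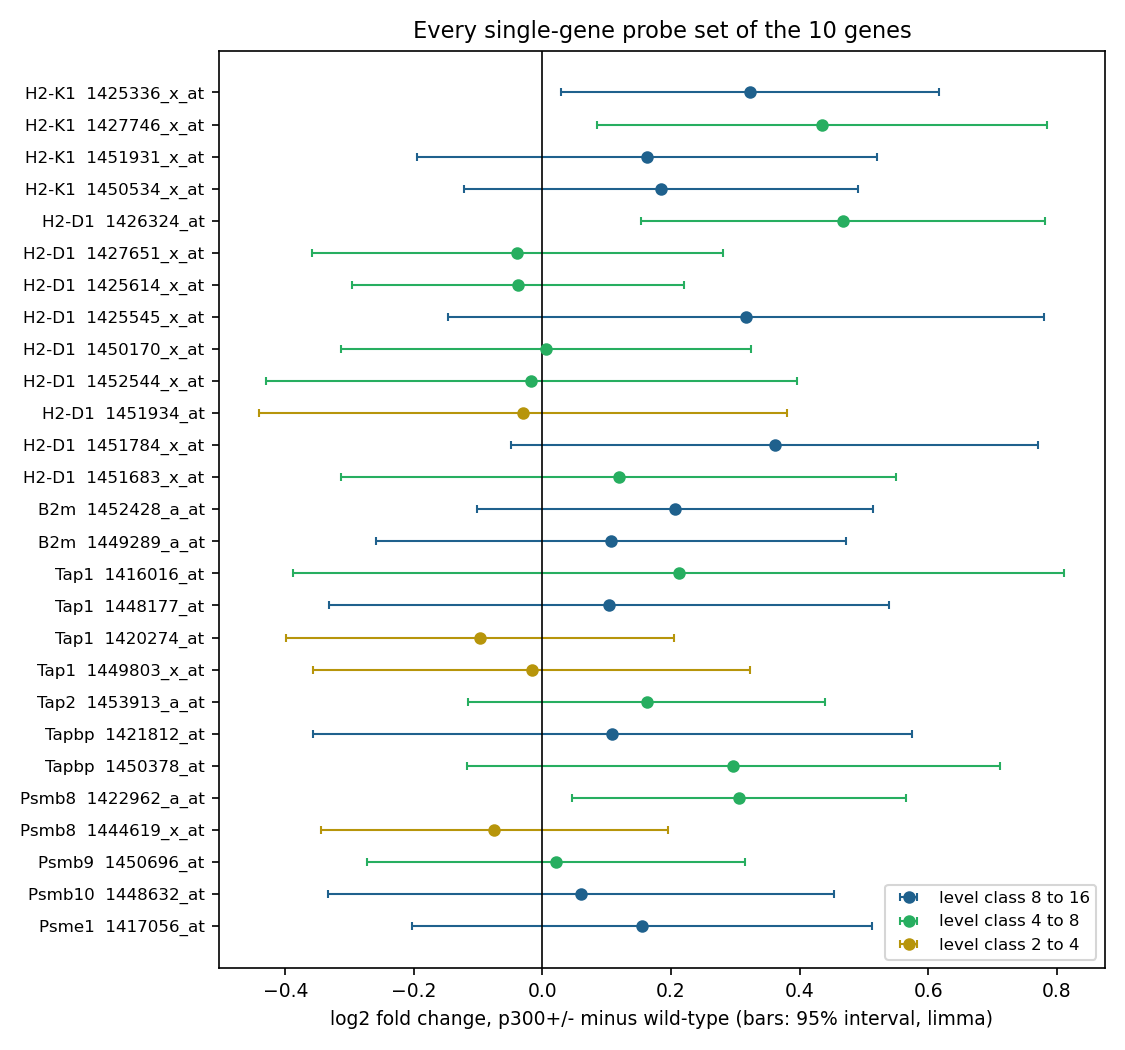
Log2 fold change, p300+/- minus wild-type, of each of the 27 probe sets (points) with its 95% interval from limma (bars), coloured by level class. Intervals of 4 probe sets, on H2-K1, H2-D1 and Psmb8, lie above 0, and the 4 probe sets of the class from 2 to 4 all lie just below 0. The intervals are unadjusted and the genes were chosen on this contrast, so they are a description and not a test.

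The 10 genes did not vary as a single unit over the arrays. The correlations below are over 6 arrays that share a processing and differ in genotype, and the genes were proposed for covariation, so no p is given. The median Pearson correlation over the 45 gene pairs was 0.42, against 0.045 over all pairs of genes in the table. It exceeded 0.5 in 18 pairs (40%, against 23.1% of all gene pairs) and lay under -0.5 in 4 pairs (8.89%, against 19.7% of all gene pairs). After each genotype's mean was subtracted the median was 0.057, against 0.050 over all gene pairs. With genotype means kept it was 0.060 without p300+/- 3, and 0.43 over the 4 arrays without both p300+/- 3 and wild-type 2.

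Groups chosen after the values were seen describe the structure. B2m, Tap1, Psmb9 and Psmb10 correlated with each other at 0.65 to 0.94, and their mean was 0.26 in p300+/- 3 and 0.15 in wild-type 2, against -0.077 to -0.0074 in the other arrays. Tap2 and Tapbp correlated at 0.95 and ran the other way, with a mean of -0.068 in p300+/- 3 and -0.37 in wild-type 2, against -0.0066 to 0.13 in the others. Between these groups the correlations ran from -0.13 (B2m with Tap2) to -0.82 (Psmb9 with Tapbp). The opposition rests on those arrays: over the other 4, Psmb9 correlated with Tapbp at 0.96 and with Tap2 at 0.78. The group of B2m, Tap1, Psmb9 and Psmb10 did not hold together over those 4 arrays either. Psmb9 with Psmb10 stayed at 0.72. B2m correlated with Psmb9 at 0.45, with Tap1 at 0.12 and with Psmb10 at -0.024. Tap1 correlated with Psmb9 at -0.42 and with Psmb10 at -0.92. H2-K1, H2-D1 and Psmb8 correlated with each other over the 6 arrays at 0.47 to 0.72, a value that includes the genotype contrast they were chosen on. With genotype means subtracted, Psmb8 correlated at -0.41 with H2-K1 and at -0.22 with H2-D1, and H2-K1 with H2-D1 at 0.39. H2-K1 was then closer to genes of the B2m group, at 0.71 with B2m, 0.89 with Tap1, 0.38 with Psmb9 and 0.45 with Psmb10. Over the 6 arrays it was at 0.70 with B2m and 0.57 with Tap1, but at 0.24 with Psmb9 and 0.32 with Psmb10. The mean of H2-K1, H2-D1 and Psmb8 was 0.030, 0.10 and 0.12 in p300+/- pools and -0.11, -0.11 and -0.051 in wild-type pools. Psme1 was nearest to Psmb10 (0.72) and B2m (0.66).

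The neighbours Tap1 and Psmb9, whose start region is printed above, correlated at 0.68 as gene averages. The brightest Tap1 probe set, 1448177_at, correlated with Psmb9 at 0.88 and with B2m at 0.88, and 1416016_at at -0.42 and 0.23. In the lowest class, 1449803_x_at correlated with Psmb9 at 0.93 and with B2m at 0.49, and 1420274_at at 0.55 and -0.062. Psmb8 and Tap2, which lie in the same cluster of the MHC on chromosome 17, correlated with Psmb9 at -0.021 and -0.65.

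**Figure D4:**
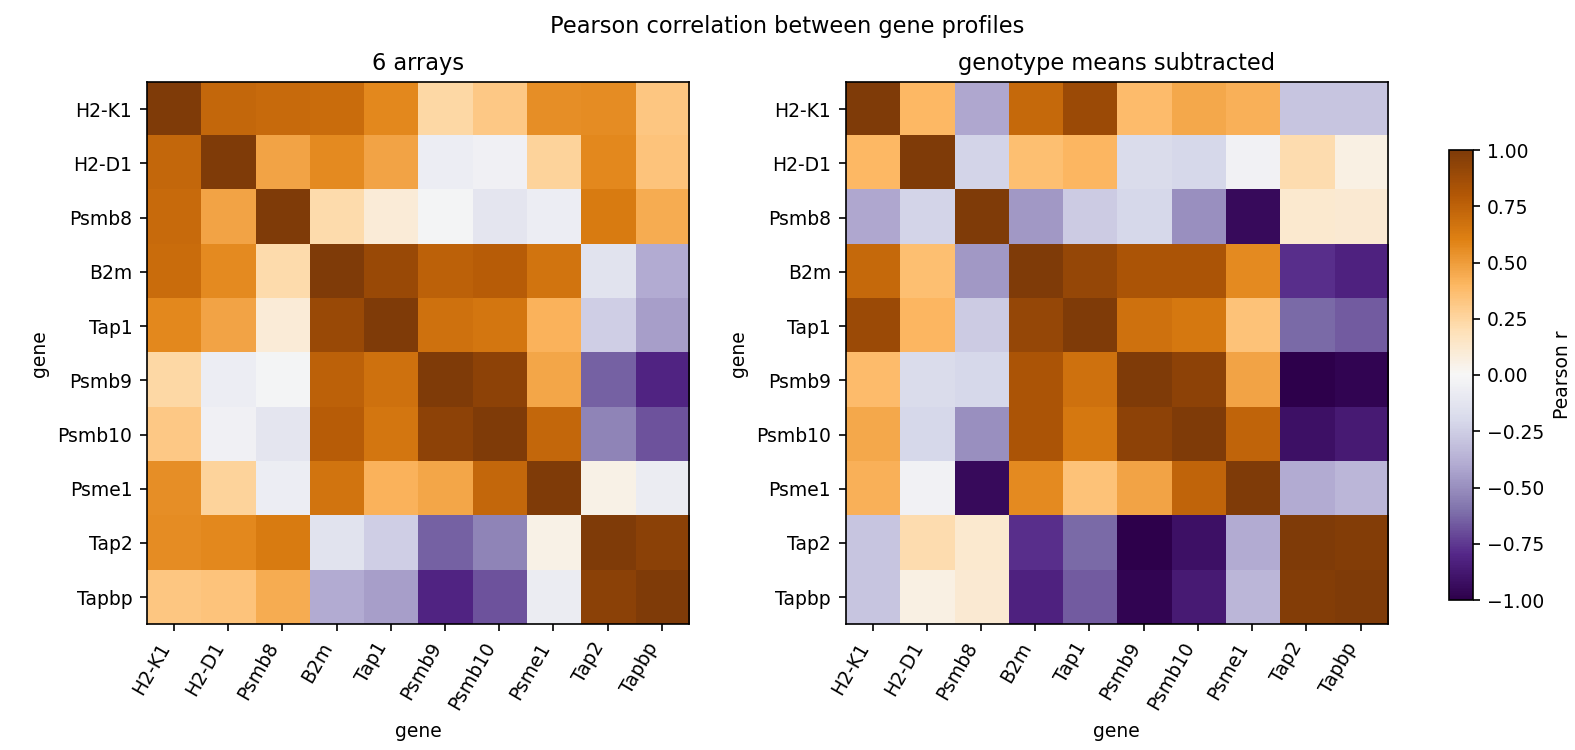
Pearson correlation between the profiles of each pair of the 10 genes, over the 6 arrays (left) and after each genotype's mean was subtracted (right), from purple (-1) to brown (1). B2m, Tap1, Psmb9 and Psmb10 form a positive block on both sides, and Tap2 and Tapbp a pair that runs against it.

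Markers of other cell types moved with these arrays. Over 15 measured microglia markers the mean was -0.051, -0.075 and 0.27 in p300+/- pools and -0.089, 0.21 and -0.037 in wild-type pools, highest in the same 2 arrays as the B2m group, and 10 of the 15 had a probe set in the brightest class. Over 11 markers of hippocampal neurons it was -0.011, 0.080 and -0.25 in p300+/- pools and 0.072, -0.37 and 0.14 in wild-type pools, lowest in the same 2 arrays as the mean of Tap2 and Tapbp. Of these 11 markers, 10 had a probe set in the brightest class. The 13 choroid plexus markers averaged -2.39 in wild-type 2 and between -0.18 and 0.30 elsewhere. The 14 endothelial and pericyte markers ran from -0.11 to 0.23 in p300+/- pools and from -0.13 to 0.16 in wild-type pools. Like the neuron markers, they were lowest in p300+/- 3 (-0.11) and wild-type 2 (-0.13). The 11 markers of perivascular macrophages and meningeal fibroblasts ran from -0.071 to 0.29 in p300+/- pools and from -0.23 to 0.14 in wild-type pools. The 8 erythroid and neutrophil markers ran from -0.094 to 0.41 in p300+/- pools and from -0.24 to 0.15 in wild-type pools. The 10 lymphocyte markers ran from -0.046 to 0.22 in p300+/- pools and from -0.16 to 0.14 in wild-type pools, and 0 of them had a probe set in the brightest class. The perivascular and meningeal, the erythroid and neutrophil, and the lymphocyte markers were all highest in p300+/- 3 and wild-type 2. Being highest in these arrays was therefore not particular to the microglia markers. The part of these cell types in the values of the class I genes was not tested. The file holds no levels, so no marker can be called absent.

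**Figure D5:**
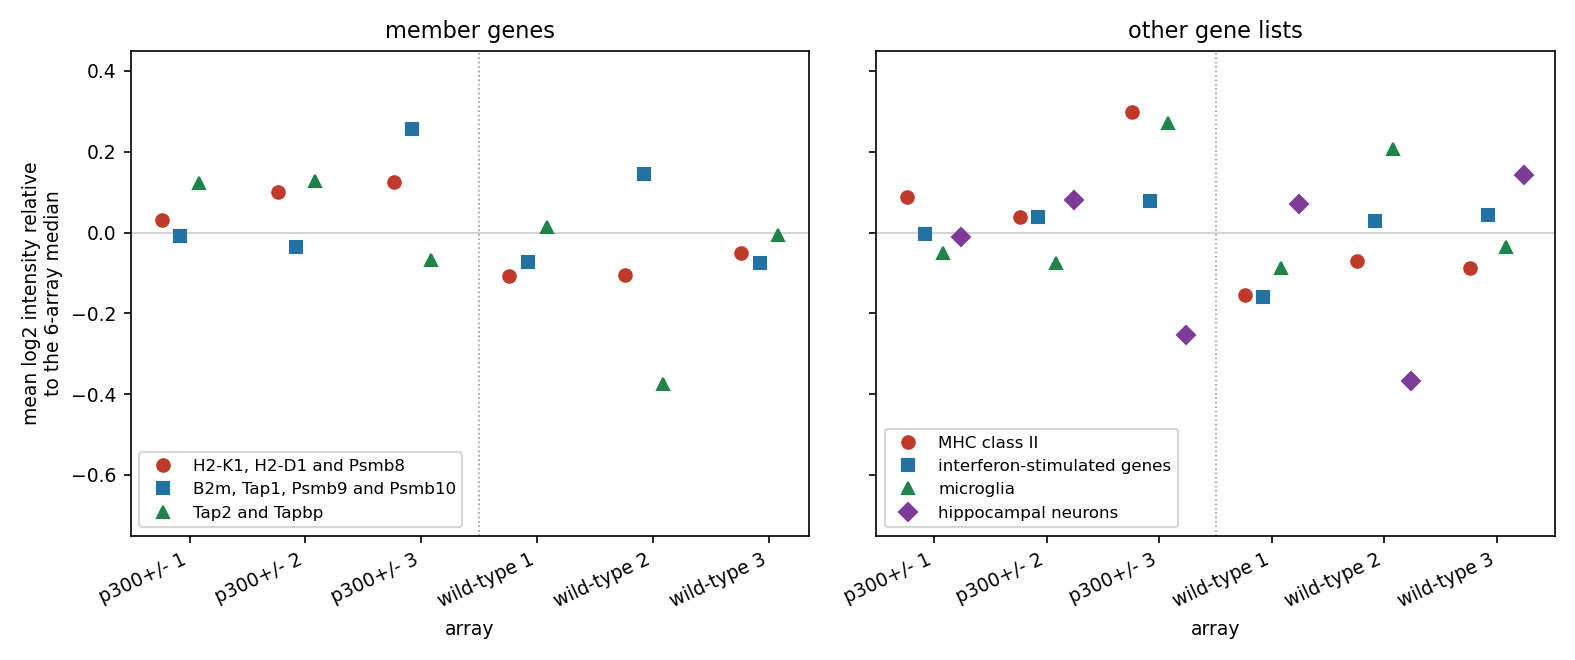
Mean log2 intensity relative to the 6-array median (vertical axis) on each array (horizontal axis, p300+/- left of the dotted line) for 3 groups of member genes (left) and for other gene lists (right), 1 symbol per group. The B2m group and microglia markers are high, and Tap2 with Tapbp and neuron markers low, in p300+/- 3 and wild-type 2. Marker lists of several other cell types, not plotted, were also highest or lowest in these arrays.

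The rest of the class I pathway was read from lists of the other genes at each step, and no gene of any list passed over the table (limma, 0 higher and 0 lower). Of 10 measured heavy chains and class I-like genes 8 had values above 0, with a median log2 fold change of 0.061. Over all 18193 genes 57.6% were above 0 and the median was 0.019. Fcgrt, the heavy chain of the neonatal Fc receptor, which also pairs with B2m, lay at 0.15, 0.024 and 0.26 in p300+/- pools and at -0.27, -0.024 and -0.15 in wild-type pools, without overlap. Fcgrt was named for its small p, and 3.19% of all probe sets separated the genotypes with p300+/- higher. Mr1, which presents vitamin B metabolites to T cells, was at 0.24 ± 0.14 (SE) on the probe set of smallest p and averaged 0.25 over 2. Of 8 loading partners and trimming enzymes of the endoplasmic reticulum 7 were above 0, with a median of 0.085. Erap1, the aminopeptidase that trims class I peptides, lay at 0.0037, 0.24 and 0.46 in p300+/- pools and at -0.49, -0.0037 and -0.12 in wild-type pools. Its log2 fold change was 0.44 ± 0.18 (SE) on that probe set and 0.33 averaged over its 2 probe sets. Sec61a1, a subunit of the translocon, was at 0.41 ± 0.21 (SE) with -0.73 in wild-type 2, and averaged 0.11 over its 6 probe sets.

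Genes of the cytosolic supply of peptides split 8 above and 6 below 0 (median 0.035), and the genes named from it were the peptidases Blmh and Tpp2. On its probe set of smallest p, Blmh was at 0.21 ± 0.11 (SE), and it averaged 0.13 over 2 probe sets. Tpp2 was at -0.25 ± 0.15 (SE) on 1 of 5 probe sets, and averaged -0.0074 over all 5. Transcription and interferon signalling genes split 16 to 9 (median 0.034). After Ep300, Creb1 had the smallest p in that list. Creb1 encodes CREB, a factor of the CRE-like box, and lay at 0.21, 0.38 and 0.16 in p300+/- pools and -0.17, -0.27 and -0.16 in wild-type pools on the probe set named, but averaged 0.14 over its 6 probe sets. Some regulators were singled out for their role, outside the naming rule. Nlrc5, the class I transactivator, was at 0.043, and Rfx5, a subunit of the RFX complex that binds the X box, at -0.040. The interferon-induced factor Irf1 was at 0.086, from -0.069, 0.047 and 0.23 in p300+/- pools and -0.044, 0.040 and -0.040 in wild-type pools. The genotypes overlapped for each of these regulators. Receptors for class I split 5 to 4 (median 0.034), and each named gene had 4 probe sets. Cd247, the CD3 zeta chain, was at 0.18 ± 0.11 (SE) on the one of smallest p and averaged 0.13, and Cd160 was at 0.16 ± 0.11 (SE) and averaged 0.034.

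Of the neighbouring immune pathways, MHC class II, which presents peptides to CD4 T cells, was followed as well. Its 8 measured genes averaged 0.088, 0.038 and 0.30 in p300+/- pools and -0.15, -0.070 and -0.087 in wild-type pools. Of them 7 were above 0, against 57.6% of all genes, with a median log2 fold change of 0.21. Cd74, the invariant chain, was at 0.64 ± 0.12 (SE). Interferon-stimulated genes averaged -0.0033, 0.039 and 0.077 in p300+/- pools and -0.16, 0.029 and 0.044 in wild-type pools over 26 genes, and the genotypes overlapped. Of these genes 18 were above 0, with a median of 0.070, and Ifi35 was at 0.28 ± 0.14 (SE) on 1 of its 3 probe sets, the one of smallest p, but averaged 0.097 over them. None of these genes passed over the table (limma), and the differences between the lists were not tested.

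The probe sets whose profile was most like the mean of the 10 genes, among 34918 of other genes over the 6 arrays, read Psmd4 (r = 0.995), Pip5k1a (0.994), Zfp711 (0.992), Tmem192 (0.991) and 2510009E07Rik (0.989). Psmd4 encodes a ubiquitin receptor of the proteasome cap and Pip5k1a a phosphatidylinositol phosphate kinase. With 6 arrays and this many profiles, close matches are found for many shapes.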

How the data were processed

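Per the labels' protocols, hippocampal RNA was extracted with Trizol, cleaned on RNeasy columns, pooled from 4 animals per array and hybridised to Affymetrix Mouse Genome 430 2.0 arrays, and the authors processed and normalized the data in GeneSpring GX. The sources used here do not give the software version, the probe summarization, the normalization between arrays or the filters. The deposited log2 values are centred on each probe set's median over the 6 arrays, which was 0 within 1e-06, and the base of the logarithm was inferred. Level classes assume that differences of single-precision log2 numbers were deposited.

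Control probe sets (64) were removed. The table then had 45037 probe sets: 34945 with 1 gene symbol, 932 with more than 1 and 9160 unnamed. Of those with 1 symbol, 34741 matched RefSeq by gene ID (GRCm38.p6), which was used for names. Probe sets were compared with limma 3.58.1 in R 4.3.3 (lmFit, eBayes), two-sided, p300+/- minus wild-type, with no covariates and no filter. The fit was tested on simulated data. Gene values are means over single-gene probe sets, and their SE comes from the pooled SD of 3 arrays per genotype. The number of arrays limited precision. The pools were labelled as independent biological replicates.

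The members and lists were chosen with earlier results of these data known. Named were all member probe sets, Ep300, the 2 genes of smallest p in each pathway list and 1 in each other list, and the 5 closest profiles. For the cell type lists, the log2 fold change of the probe set of smallest p, then the average over all the gene's probe sets, was -0.35 and -0.083 for Laptm5, 0.49 and 0.15 for Rgs5, 0.37 and 0.096 for Dcn, 0.43 and 0.51 for Cldn2, -0.35 and -0.15 for Snap25, and 0.61 and 0.28 for Mobp. Ngp (0.43) and Ncr1 (-0.20) had 1 probe set each. Astrocyte and oligodendrocyte markers averaged between -0.15 and 0.048 on the arrays. Promoters were RefSeq windows. Alternatives comprised other normalizations, array weights, moderation, a replicate block, stricter probe sets and left-out arrays. Figures were drawn with matplotlib 3.10.9.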

Additional observations from a re-analysis of the deposited data

How the results depend on the processing

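No probe set of the table passed an adjusted p of 0.05 under any alternative run, nor an adjusted p of 0.1 in the limma fit, and unadjusted p under 0.05 was reached by 419 to 1632 probe sets. The median log2 fold change of the 10 genes was 0.14, and 0.12 to 0.14 under the other normalizations and array weights. With the first probe set of each gene it was 0.16. Other probe set choices covered fewer genes. Without probe sets that can bind several transcripts the median was 0.11 over 6 genes, and in the brightest class 0.15 over 7 genes. With 1 array left out the median of the 10 genes ran from 0.074 (without p300+/- 3) to 0.15. Without both p300+/- 3 and wild-type 2, chosen after seeing the data, it was 0.089. The number of member probe sets above 0 was 15 to 23 with 1 array left out. It was 8 of 10 without probe sets that can bind several transcripts and 11 of 11 in the brightest class, where fewer probe sets were counted. The median correlation of 0.42 ran from 0.060 to 0.50 with 1 array left out and was 0.057 with genotype means subtracted. Of 318 values of single member probe sets under an alternative 317 moved by less than the replicate SD, and the exception was Tap1 1416016_at without both arrays. That count says little about stability. Leaving out 1 of 3 arrays can move a mean by only part of that SD, and the replicate block and the subsets leave each log2 fold change as it was. The sign changed with at least 1 array left out for 14 of the 27 probe sets. Same-numbered arrays had deviations that correlated at 0.609, -0.23 and -0.468, without a common sign. Deviations within a genotype sum to 0, so these values depend on each other and cannot settle whether the numbers pair the pools. With the replicate number as a block 0 probe sets passed, the medians were 0.14 for the log2 fold change and 0.43 for the correlation, and 20 member probe sets were above 0.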
